A study of Homo sapiens with 6 samples.

Results

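The genes described here encode 39 proteins of enzyme families and complexes that write or remove methyl marks on histones and DNA. They were chosen by name, as the rows of the count table that carry 1 of 39 listed gene symbols, and all 39 were found among its 60675 genes. By role they were listed as 13 histone demethylases, 16 histone methyltransferases, 4 genes of Polycomb repressive complex 2 (PRC2) and 6 DNA methylation enzymes. The roles follow gene names and families, and whether each product is active as an enzyme was not tested. The RNA came from HCT116 cells, a widely used line derived from a human colorectal carcinoma, and was sequenced as 6 libraries, 2 in each of 3 groups. The untreated group is labelled as wild-type control cells, the SP2509 group as wild-type cells exposed to the compound at 3 uM for 48 h, and the siPIR group as cells in which PIR was knocked down transiently with small interfering RNA for 48 h. The compound is an inhibitor directed at the demethylase LSD1 (KDM1A), and the product of PIR, Pirin, is a nuclear protein that binds iron. The siPIR samples carry SP2509 in their treatment field, and the labels do not settle whether those cells received the compound. The protocols name DMSO as a solvent control, and whether the untreated cells received it is not stated.

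Histone methyltransferases transfer a methyl group from S-adenosylmethionine to lysines of the histone tails, and a given site can mark either active or silent chromatin. The JmjC demethylases and the TET enzymes remove or oxidise methyl groups with iron, oxygen and 2-oxoglutarate, whereas LSD1 uses a flavin. PRC2 methylates H3K27, DNMT1 copies DNA methylation to the new strand after replication, and DNMT3A and DNMT3B place it at new sites. The comparisons show how the transcripts of these enzymes stood after exposure to a compound directed at 1 demethylase and after loss of Pirin.

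The libraries held between 22622441 and 28816590 counts, and the replicates of a group correlated at 0.991 to 0.996 across the genes tested. PIR stood at 14.4 and 14.6 CPM (counts scaled to library size, with edgeR's trimmed mean of M values, TMM) in untreated libraries. With SP2509 the values were 14.8 and 11.8, and after knockdown 1.93 and 2.03. That is a fall by 2.87 ± 0.175 (log2, SE) in the siPIR libraries, edgeR adjusted p = 3.39e-09. With a correction for transcript GC content and length (the GC-length offset) the fall was smaller, with a log2 fold change of -2.003 (edgeR adjusted p = 1.41e-09). The siPIR libraries stood apart from the other 4: the count-weighted GC content of their transcripts was 42.27% and 42.76%, against 48.26% to 48.66% elsewhere. In the SP2509 libraries 6.33% and 6.93% of counts were mitochondrial ribosomal RNA, beside 1.14% to 1.63% in the other groups. The epithelial markers EPCAM, KRT8, KRT18 and CDH1 were abundant, while of the intestinal markers CDX1 was at 0 in every library. CDX2 and KRT20 fell with SP2509, by 0.68 and 3.07 (log2). In siPIR libraries they fell by 3.47 and 2.08 as fitted and by 1.32 and 2.36 with the offset. KRT20 was low, at 1.99 and 2.69 CPM untreated, and VIL1 reached at most 0.443 CPM. The 8 epithelial markers summed to 2893 and 2922 CPM without treatment, to 3178 and 3230 CPM with SP2509, and to 1257 and 1274 CPM after knockdown. Members of that list differed in siPIR libraries: KRT8 and KRT18 fell by 2.87 and 2.55 (log2; by 0.74 and 0.56 with the offset), whereas EPCAM and CDH1 rose by 1.75 and 0.61 (1.73 and 0.82 with the offset). Of 14 markers of other cell types, the 5 of fibroblasts summed to 22.4 and 25.4 CPM without treatment, to 20.8 and 21.96 CPM with SP2509, and to 1.62 and 2.03 CPM after knockdown. Nearly all of that was COL1A1 (61.1% GC), at 21.96 and 24.8, 21.8 and 20.6, and 1.15 and 1.56 CPM, whose siPIR fall was by 4.10 as fitted and by 0.77 with the offset. The 5 leukocyte markers, with PTPRC and CD3E at 0 in every library, summed to at most 1.06 CPM, and the 4 endothelial markers to at most 1.83 CPM. Their part in the results was not tested. Nothing in the labels says that replicates are separate cultures, so each p-value reflects no more than the scatter among these libraries, and that scatter may be technical. Fewer cells of a kind and less RNA per cell cannot be told apart in such bulk samples.

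Before treatment the enzymes differed widely in level. Per kilobase of the longest transcript, DNMT1 was the highest of the 39 at 40.4 CPM per kb (mean of the 2 untreated libraries). EHMT2, the H3K9 methyltransferase also called G9a, followed at 24.6, then the H3K9 demethylase KDM3B at 21.1, the PRC2 subunit SUZ12 at 19.9 and SETD7 at 16.9 CPM per kb. The lowest levels were those of TET1 at 0.839 and SETDB2 at 1.11 CPM per kb. In PRC2 the 2 catalytic subunits were unequal, EZH2 standing at 14.1 and EZH1 at 5.78 CPM per kb. Of the DNA methyltransferases, DNMT3B stood at 5.29 and DNMT3A at 2.44 CPM per kb. Before division by length they stood at 22.95 and 23.2 CPM. The difference therefore comes from the longest annotated transcripts, of 4336 and 9501 bases, and whether these cells use those was not tested.

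In SP2509-treated cells, an H3K27 demethylase and the H3K79 methyltransferase rose most, and an H3K9 methyltransferase fell most. KDM6A and DOT1L each rose 2.70-fold, KDM6B 2.32-fold, SETD2 2.16-fold, TET3 2.12-fold and KMT2C 2.02-fold. The largest fall was that of the H3K9 methyltransferase SUV39H2, 2.33-fold. In all, 17 of the 39 genes were higher and 6 lower than in untreated cells at an edgeR adjusted p below 0.05, and 16 were not called. Among all 16503 genes tested, 33.5% were called higher and 35.1% lower. The median log2 fold change of the 39 was 0.22, beside -0.04 for all genes tested. By role, 5 of 13 demethylases were called higher and 1 lower (median 0.22), 9 and 3 of 16 methyltransferases (median 0.37), 1 and 0 of 4 PRC2 genes (median 0.13), and 2 and 2 of 6 DNA methylation enzymes (median -0.05). The balance of calls depends on how libraries are scaled. Upper-quartile scaling gave 11 higher and 10 lower with the median of all genes at -0.27. Of the 16503 genes tested, 4202 were called higher and 7394 lower under that scaling. Total counts alone gave 10 and 16 with the median of all genes at -0.43, beside 3363 and 8527 of all genes. The GC-length offset gave 22 and 4, beside 38.2% and 34.5% of all genes. Without untreated replicate 1, or without SP2509 replicate 2, 3 genes were called lower. Called under every alternative tried were the rises of KDM2A, KDM4A, KDM6A, KDM6B, KMT2C, SETD1A, SETD2, SETDB2, DOT1L and TET3, and the falls of PHF8, EHMT2 and SUV39H2.

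**Figure D1:**
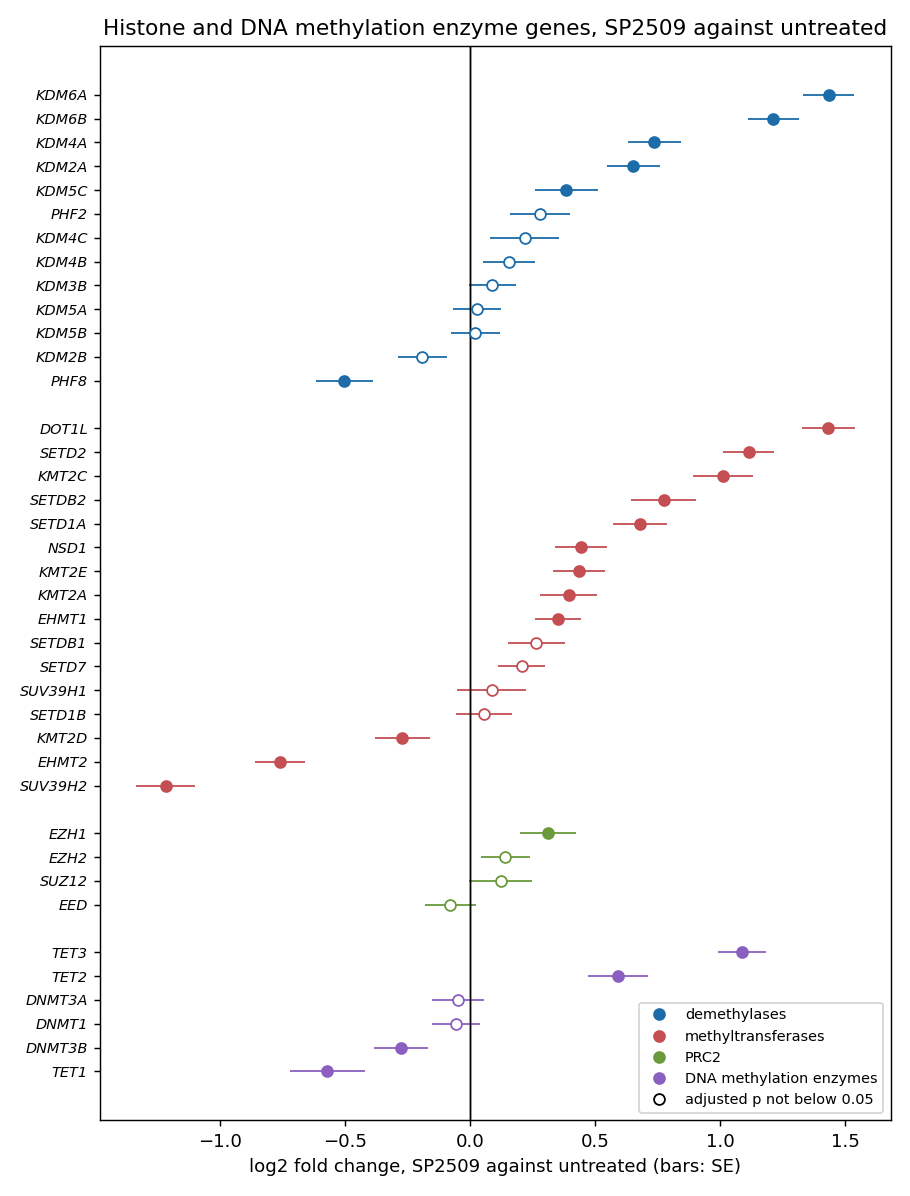
Each point is the log2 fold change of 1 of the 39 genes in SP2509 against untreated libraries (x axis), with its SE as a bar, grouped and coloured by role; filled points passed an edgeR adjusted p of 0.05. KDM6A and DOT1L lie farthest to the right at 1.43, and SUV39H2 farthest to the left at -1.22.

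Among the demethylases, the H3K27 pair KDM6A and KDM6B rose together. KDM6A (X:44873177-45112602, plus strand; all gene coordinates are GRCh38) measured 19.97 and 18.0 CPM in untreated libraries and 52.9 and 49.6 in SP2509 libraries. The groups do not overlap, and the rise was 1.43 ± 0.103 (log2, SE), edgeR adjusted p = 1.23e-07. KDM6B (17:7839904-7854796, plus strand), which lacks the tetratricopeptide repeats of KDM6A, measured 43.2 CPM in both untreated libraries and 92.4 and 108 in SP2509 libraries. Both treated values lie above the untreated ones, with a rise of 1.21 ± 0.102 and edgeR adjusted p = 4.6e-07. The other called rises were smaller: 0.74 for the H3K9 and H3K36 demethylase KDM4A, 0.65 for the H3K36 demethylase KDM2A and 0.38 for the H3K4 demethylase KDM5C. KDM5C was the least firm of these, losing its call without untreated replicate 1 (edgeR adjusted p = 0.0545), without untreated replicate 2 (0.132) or without SP2509 replicate 2 (0.157).

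PHF8, which removes methyl groups from H3K9 and H4K20, was the 1 demethylase of the 13 that fell. It measured 29.9 and 28.6 CPM in untreated and 19.1 and 22.1 in SP2509 libraries. The treated values are the lower ones in both replicates, a fall by 0.50 ± 0.114, edgeR adjusted p = 0.00158. KDM5B, an H3K4 demethylase, was the least changed, at 74.5 and 73.3 CPM untreated and 77.1 and 72.6 CPM treated. These values overlap, with a log2 fold change of 0.02 ± 0.0976 and an edgeR adjusted p of 0.868. The 7 demethylases that were not called (KDM2B, KDM3B, KDM4B, KDM4C, KDM5A, KDM5B and PHF2) had log2 fold changes of -0.19 (KDM2B) to 0.28 (PHF2). In a fit without siPIR replicate 1, KDM2B and PHF2 passed the threshold, at edgeR adjusted p = 0.0338 and 0.00173, and likewise without siPIR replicate 2.

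The methyltransferases held both a large rise and the largest fall. DOT1L (19:2164149-2232578, plus strand), the H3K79 methyltransferase, measured 47.9 and 42.9 CPM in untreated and 121 and 124 in SP2509 libraries. Both treated libraries were well above both untreated ones, a rise of 1.43 ± 0.105, edgeR adjusted p = 1.45e-07. SETD2, which trimethylates H3K36 on transcribed genes, measured 73.8 and 70.4 CPM untreated and 164 and 148 treated. It rose by 1.11 ± 0.103, edgeR adjusted p = 1.05e-06. KMT2C, an H3K4 methyltransferase of enhancers that works in a complex with KDM6A, measured 60.3 and 56.2 CPM untreated and 124 and 110.3 treated. Its groups do not overlap either, and the rise was 1.01 ± 0.122, edgeR adjusted p = 1.02e-05. KMT2D, the close relative of KMT2C, went the other way, with a log2 fold change of -0.27 at an edgeR adjusted p of 0.0435. The KMT2D call was lost when either replicate of untreated or SP2509 cells was left out. It was also lost with DESeq2, with DESeq2 size factors in edgeR, without a count filter and with the GC-length offset (-0.11, edgeR adjusted p = 0.211).

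SUV39H2 (10:14878820-14904315, plus strand), which trimethylates H3K9 in heterochromatin, measured 20.6 and 20.9 CPM in untreated and 9.19 and 8.65 in SP2509 libraries. Both treated libraries stood far below the untreated ones, a fall by 1.22 ± 0.118, edgeR adjusted p = 1.49e-06. Its paralog SUV39H1 measured 12.1 and 10.2 CPM untreated and 12.3 and 11.4 treated, values that overlap (log2 fold change 0.09, edgeR adjusted p = 0.599). EHMT2 (6:31879759-31897687, minus strand) fell as well, from 102 and 101 to 59.2 and 60.4 CPM. The difference was -0.76 ± 0.0995, edgeR adjusted p = 2.06e-05. Its partner EHMT1 was called higher, with a log2 fold change of 0.35 (edgeR adjusted p = 0.00475). Without untreated replicate 2 or SP2509 replicate 1 the EHMT1 call was lost, at edgeR adjusted p = 0.073 and 0.0532, and scaling by total counts alone turned its sign (-0.04).

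The remaining methyltransferase rises were 0.77 for SETDB2, 0.68 for SETD1A, 0.44 for NSD1, 0.43 for KMT2E and 0.39 for KMT2A (log2). The KMT2A call was lost without either untreated replicate or without SP2509 replicate 1, at edgeR adjusted p = 0.0544 to 0.0745. SETD1B, the H3K4 methyltransferase most like SETD1A, was the least changed of the 16. It measured 22.3 and 19.2 CPM untreated and 22.4 and 20.7 treated, which overlap, and its log2 fold change was 0.05 ± 0.112 (edgeR adjusted p = 0.687). The other uncalled members SETDB1, SETD7 and SUV39H1 had log2 fold changes of 0.26, 0.21 and 0.09. SETDB1 and SETD7 passed the threshold in fits without either siPIR library (edgeR adjusted p = 0.00181 to 0.00471).

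**Figure D2:**
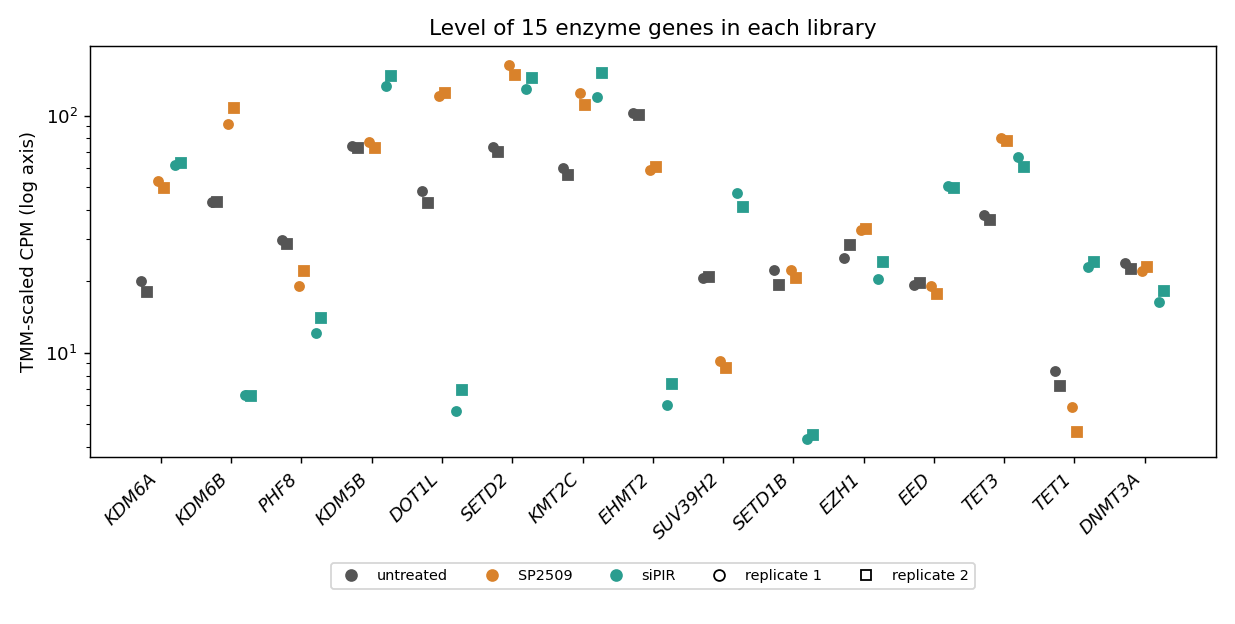
TMM-scaled CPM (y axis, log scale) of 15 of the genes in each of the 6 libraries, with circles for replicate 1 and squares for replicate 2. SP2509 libraries lie above untreated ones for KDM6A, KDM6B, DOT1L, SETD2, KMT2C and TET3 and below them for PHF8, EHMT2, SUV39H2 and TET1. For KDM6B, DOT1L, EHMT2 and SETD1B the siPIR libraries lie far below both, without correction for GC content. With the GC-length offset KDM6B, DOT1L and SETD1B were called higher than untreated (0.93, 0.84 and 1.13, log2) and EHMT2 lower (-0.56).

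In the core of PRC2, 3 of 4 genes were not called with SP2509. EZH1, the catalytic subunit typical of non-dividing cells, was the 1 gene of the 4 that was called. It measured 25.1 and 28.4 CPM untreated and 33.0 and 33.3 treated. The groups do not overlap, but the rise was small, 0.31 ± 0.111 with edgeR adjusted p = 0.0242, and it was lost without untreated replicate 1 (0.224), SP2509 replicate 1 (0.0864) or SP2509 replicate 2 (0.0938). With total counts alone the EZH1 sign turned, to -0.08. EZH2, the catalytic subunit of dividing cells, had a log2 fold change of 0.14 ± 0.0975 (edgeR adjusted p = 0.217). EED, which binds trimethylated H3K27, was the least changed, at 19.2 and 19.7 CPM untreated and 19.1 and 17.7 treated. Its log2 fold change was -0.08 ± 0.103, edgeR adjusted p = 0.51. The scaffold subunit SUZ12 measured 87.5 and 91.01 CPM untreated and 103 and 91.1 treated (0.12 ± 0.126, edgeR adjusted p = 0.402). Summed over the 4 genes, PRC2 stood at 183 and 191 CPM untreated and 213 and 197 CPM treated.

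Of the DNA methylation enzymes, TET3 and TET2 rose and TET1 fell, and 2 of the 3 DNA methyltransferases were not called. TET3, which oxidises 5-methylcytosine, measured 38.1 and 36.4 CPM in untreated and 80.0 and 78.3 in SP2509 libraries. Both treated values lie above the untreated ones, a rise of 1.09 ± 0.0975, edgeR adjusted p = 7.9e-07. TET2 rose by 0.59 ± 0.12, edgeR adjusted p = 0.000761. TET1, the lowest of the 3, measured 8.38 and 7.21 CPM untreated and 5.89 and 4.62 treated. That is a fall by 0.57 ± 0.15, edgeR adjusted p = 0.00444, and the TET1 call was lost without untreated replicate 1 (0.0727) or without SP2509 replicate 2 (0.0915). DNMT3A was the least changed, at 23.9 and 22.5 CPM untreated and 21.997 and 22.9 treated, and these overlap (-0.05 ± 0.105, edgeR adjusted p = 0.694). DNMT1 measured 226 and 211 CPM untreated and 212 and 208 treated (-0.06 ± 0.0957, edgeR adjusted p = 0.614). DNMT3B was called lower at -0.28 ± 0.109 (edgeR adjusted p = 0.037). The DNMT3B call was lost when any 1 of the 4 compared libraries was left out. It was also lost with DESeq2, with DESeq2 size factors in edgeR, without a count filter and with the GC-length offset (-0.18, edgeR adjusted p = 0.127).

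Ratios of related genes within a library do not depend on the scaling. The order of counts turned over in the EHMT and SUV39H pairs. EHMT2 and EHMT1 form a heterodimer, and their count ratio was 1.64 and 1.67 in untreated libraries and 0.740 and 0.793 in SP2509 libraries. For SUV39H1 to SUV39H2 the ratio was 0.587 and 0.488 untreated and 1.33 and 1.32 with SP2509. In both pairs the gene with more counts in untreated cells had fewer in treated cells. Counts also rise with transcript length. Per kilobase of the longest transcript EHMT2 stayed above EHMT1, at 24.6 and 7.80 CPM per kb untreated and 14.5 and 9.95 with SP2509. SUV39H1 and SUV39H2 turned over there too, from 3.74 and 6.73 to 3.98 and 2.89 CPM per kb. For SETD1A to SETD1B the ratio was 2.35 and 2.66 untreated and 3.67 and 4.03 with SP2509. The ratio of KDM6A to KDM6B, in contrast, was 0.462 and 0.416 untreated and 0.573 and 0.461 treated, so the untreated and treated ranges overlap. The ratio of TET3 to TET2 was 2.04 and 1.98 untreated and 2.63 and 3.09 treated, that of EZH2 to EZH1 was 2.04 and 1.81 against 1.76 and 1.66, that of DNMT3B to DNMT3A was 1.002 and 0.975 against 0.884 and 0.805, and that of KDM5B to KDM5A was 1.13 and 1.03 against 1.09 and 1.06. With 2 libraries a group, an exact two-sided permutation test cannot go below p = 0.333, so the ratios are given without a test.

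**Figure D3:**
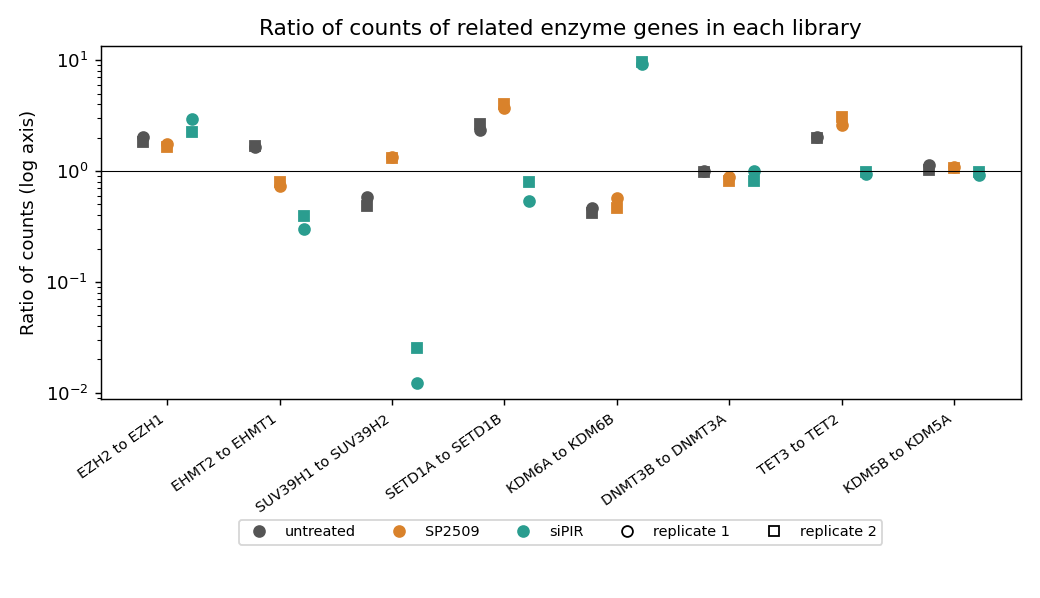
Ratio of the counts of 8 pairs of related genes (y axis, log scale) in each library, with circles for replicate 1 and squares for replicate 2. The SUV39H1 to SUV39H2 ratio lies near 0.5 in untreated, at 1.3 in SP2509 and between 0.0122 and 0.0252 in siPIR libraries.

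The promoters of the genes at both ends of the SP2509 comparison are shown because these genes, KDM6A and SUV39H2, moved farthest in opposite directions. The stretches run from 250 to 51 bases before the RefSeq start site (GRCh38.p14), KDM6A at chrX:44872938-44873137 and SUV39H2 at chr10:14878616-14878815, both on the plus strand. Capitals mark matches, on either strand, to the words searched: GGGCGG (GC box), CCAAT (NF-Y), TGACGTC (CREB), TTTGAA (cell cycle homology region), CCGGAAG (ETS), and GCGGGAA and TTGGCGC (E2F).
KDM6A: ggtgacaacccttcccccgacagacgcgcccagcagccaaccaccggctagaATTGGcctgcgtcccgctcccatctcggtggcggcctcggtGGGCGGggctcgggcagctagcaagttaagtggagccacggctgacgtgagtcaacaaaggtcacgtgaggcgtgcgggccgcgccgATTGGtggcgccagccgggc
SUV39H2: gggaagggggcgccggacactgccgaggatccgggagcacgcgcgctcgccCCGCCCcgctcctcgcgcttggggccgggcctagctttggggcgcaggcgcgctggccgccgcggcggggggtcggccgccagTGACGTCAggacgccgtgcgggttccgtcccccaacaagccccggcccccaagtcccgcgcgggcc

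The KDM6A stretch holds 1 GC box word and 2 CCAAT words, and the SUV39H2 stretch 1 GC box word and TGACGTC on both strands in overlapping matches. RefSeq promoters, from 250 bases before to 50 after each start site, were matched for 37 of the 39 genes, all but SETD1B and DOT1L, and they gave 60 promoters. GGGCGG was found in 40 of them (66.7%), beside 44.95% of all 35116 promoters in the table. TGACGTC was found in 5 (8.33%, beside 3.446%), those of EED, KDM2B, PHF8, SUV39H2 and TET2. CCAAT was in 19 (31.7%, beside 34.61%), TTTGAA in 6 (10.0%, beside 15.16%), CCGGAAG in 4 (6.67%, beside 10.26%), GCGGGAA in 2 (3.33%, beside 6.553%) and TTGGCGC in 1 (1.67%, beside 3.041%). The enzyme promoters were richer in GC than the others, with a median of 67.33% beside 58.67%. A match is a description of letters and not of binding.

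Other genes of the same pathways, which are not among the 39, were counted in the SP2509 comparison in the same way. The counts as fitted are to be read beside the 33.5% of all genes called higher and 35.1% called lower. Of all 16503 genes, upper-quartile scaling called 4202 higher and 7394 lower, and total counts alone 3363 and 8527. KDM1A, the target for which SP2509 is known, fell from 194 and 193 to 146 and 141 CPM (-0.43 ± 0.092, edgeR adjusted p = 0.00117). Of 7 other demethylases, 4 were called higher and 2 lower, from the H3K9 and H3K27 demethylase KDM7A at 1.42 to KDM8 at -2.24 (log2 fold change). KDM8 was low, at 2.99 and 2.56 CPM untreated and 0.668 and 0.504 treated. Of 18 other histone methyltransferases, 10 were called higher and 3 lower, but 8 and 5 with upper-quartile scaling and 6 and 6 with total counts alone. KMT5B, which methylates H4K20, rose most (1.27), and the arginine methyltransferase PRMT6 fell most (-2.22). For the subunits of the COMPASS complexes that carry KMT2 and SETD1 enzymes the counts were 4 higher and 3 lower of 10 (3 and 5 with total counts alone), near the shares of all genes, with NCOA6 at 0.95 and MEN1, the gene of menin, at -0.83.

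Of 7 PRC2 partners, 3 were called higher and 2 lower (2 and 4 with total counts alone). PHF1, a Polycomb-like accessory subunit, rose by 1.35, and the histone chaperone RBBP7 fell from 122 and 119 to 34.4 and 35.6 CPM, a log2 fold change of -1.78 (edgeR adjusted p = 1.31e-08). Of 9 partners and readers of DNA methylation, 4 were called higher and 4 lower (2 and 5 with total counts alone). UHRF1, which recruits DNMT1 to hemimethylated DNA, fell from 106 and 96.8 to 49.2 and 49.9 CPM (-1.03, edgeR adjusted p = 0.0001). UHRF2, its paralog, rose by 1.69 (edgeR adjusted p = 9.33e-08). Of 8 genes of cofactor metabolism, 1 was called higher, OGDH at 0.32, and 6 lower (0 and 7 with total counts alone). Their products may make or use up a cofactor, so the counts give no direction of supply. The largest fall was that of D2HGDH (-1.59), which clears D-2-hydroxyglutarate, an inhibitor of 2-oxoglutarate-dependent enzymes.

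In the siPIR libraries the level of these genes followed the GC content of their transcripts, so values are given beside that content and the value under the GC-length offset. SUV39H1 and SUV39H2 show it within 1 enzyme family. The middle 120 bases of their coding sequences (GENCODE release 29) are printed with G and C in capitals, to show their GC content. The stretches were placed by position and not aligned, so they are not matching parts of the proteins. They are bases 577 to 696 of 1272 in SUV39H1, of which 65.83% are G or C (58.65% over its whole coding sequence), and bases 466 to 585 of 1053 in SUV39H2, with 41.67% (39.7% over the whole).
SUV39H1: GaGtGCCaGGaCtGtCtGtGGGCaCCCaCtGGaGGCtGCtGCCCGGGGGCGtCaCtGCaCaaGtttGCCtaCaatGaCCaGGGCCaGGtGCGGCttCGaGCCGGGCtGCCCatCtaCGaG
SUV39H2: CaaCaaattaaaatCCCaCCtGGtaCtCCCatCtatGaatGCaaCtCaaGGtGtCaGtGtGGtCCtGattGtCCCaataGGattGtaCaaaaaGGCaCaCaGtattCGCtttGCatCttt

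SUV39H1 (57.6% GC over its longest transcript) measured 0.575 and 1.04 CPM in siPIR libraries, beside 12.1 and 10.2 untreated, and SUV39H2 (41.1% GC) 47.2 and 41.3 CPM, beside 20.6 and 20.9. Their ratio was 0.0122 and 0.0252 in siPIR libraries and 0.587 and 0.488 in untreated ones. As fitted, SUV39H1 fell by 3.78 ± 0.228 (log2, SE; edgeR adjusted p = 3e-09) and SUV39H2 rose by 1.09 ± 0.106 (edgeR adjusted p = 4.32e-07). With the offset SUV39H1 was at -1.28 (edgeR adjusted p = 0.000132) and SUV39H2 at -0.11 (edgeR adjusted p = 0.283), so that the rise of SUV39H2 was not called.

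Across the 39 genes, 16 were called higher and 19 lower in siPIR against untreated libraries, beside 39.3% and 46.9% of all genes tested. The rank correlation of the log2 fold change with transcript GC content was -0.879 over the 39 genes and -0.883 over 16345 genes, a description over genes that share the same libraries. With the offset, 22 were called higher and 9 lower (32.7% and 32.4% of all genes), and the rank correlation over the 39 was 0.219. The 2 fits called 10 genes higher in common (KDM4C, KDM5B, KDM6A, KMT2A, KMT2C, KMT2E, SETD7, SUZ12, TET2 and TET3) and 7 lower (KDM4A, KDM5C, SETD1A, EHMT1, EHMT2, SUV39H1 and DNMT1). They called 11 genes in opposite directions: KDM2A, KDM3B, KDM4B, KDM6B, PHF2, SETD1B, DOT1L, EZH1, EED, DNMT3A and DNMT3B. A further 7 were called only without the offset (KDM5A, PHF8, KMT2D, SETD2, SETDB2, SUV39H2 and TET1), 3 only with it (KDM2B, SETDB1 and EZH2), and NSD1 in neither. The offset does not remove the trend in full: genes with more than 60% GC kept a median of -0.65 with it, and it would also remove a true change that runs with GC content.

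**Figure D4:**
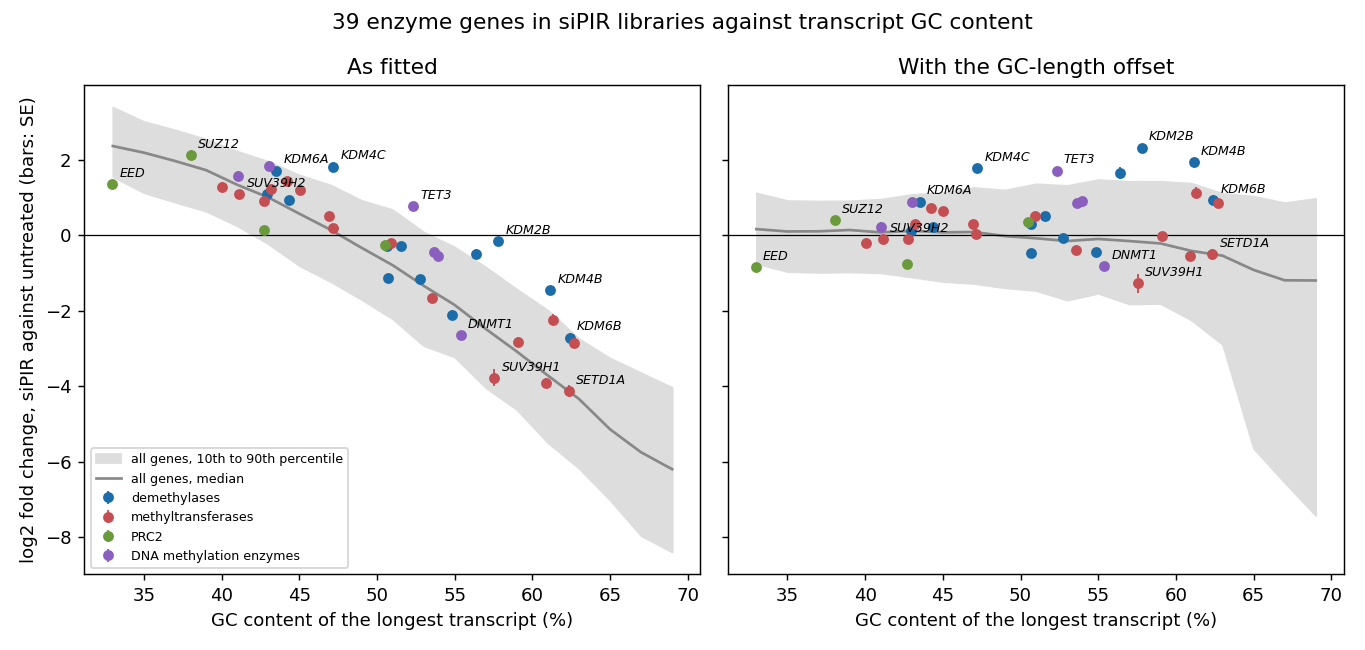
Log2 fold change of the 39 genes in siPIR against untreated libraries (y axis, SE as bars) against the GC content of the longest transcript (x axis, percent), as fitted on the left and with the GC-length offset on the right; the line and band are the median and the 10th to 90th percentile of all genes. On the left the points descend from SUZ12 at 2.13 to SETD1A at -4.13, and on the right they spread around 0 from SUV39H1 at -1.28 to KDM2B at 2.33.

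Among the demethylases, 4 of 13 were called higher and 8 lower in siPIR libraries as fitted, and 9 and 2 with the offset. Of all genes tested, 39.3% were called higher and 46.9% lower as fitted, and 32.7% and 32.4% with the offset. The H3K27 pair separated: KDM6A (43.5% GC) measured 61.7 and 63.2 CPM in siPIR libraries and KDM6B (62.4% GC) 6.63 and 6.56 CPM. As fitted KDM6A rose by 1.72 (edgeR adjusted p = 2.95e-09) and KDM6B fell by 2.71 (edgeR adjusted p = 2.77e-10), the largest fall of the 13. With the offset both were called higher, KDM6A at 0.89 and KDM6B at 0.93. Their ratio, at 0.462 and 0.416 untreated, was 9.31 and 9.63. KDM4C (47.2% GC), an H3K9 and H3K36 demethylase, had the largest rise as fitted, from 7.86 and 8.79 to 32.4 and 26.5 CPM. It was at 1.82 as fitted (edgeR adjusted p = 1.44e-08) and at 1.78 with the offset (1.72e-11), under which KDM2B (57.8% GC, 2.33) and KDM4B (1.93) stood higher.

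KDM4A (50.7% GC), which belongs to the same subfamily, was lower both ways, at -1.14 as fitted and -0.48 with the offset, from 68.7 and 72.1 to 28.8 and 35.04 CPM. KDM4B (61.2% GC) was at -1.45 as fitted and 1.93 with the offset, so no direction can be given for it. PHF8 (52.8% GC) measured 12.1 and 14.01 CPM, with -1.17 as fitted (edgeR adjusted p = 8.69e-07) and -0.07 with the offset (0.568). KDM5B (44.4% GC) measured 133 and 147 CPM in siPIR libraries, at 0.93 as fitted and 0.22 with the offset (edgeR adjusted p = 0.0125). KDM2A (51.6% GC) and KDM3B (50.7% GC) were called lower as fitted, at -0.28 and -0.27, and higher with the offset, at 0.50 and 0.31. As fitted, both calls were lost without untreated replicate 1 (KDM2A edgeR adjusted p = 0.124, KDM3B 0.11). KDM2A also lost it without untreated replicate 2 (0.0603), siPIR replicate 1 (0.109) or SP2509 replicate 2 (0.0553), and when the number in the descriptions was a block (0.0797).

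Of the methyltransferases, 7 of 16 were called higher and 7 lower in siPIR libraries as fitted, and 7 and 4 with the offset. The shares of all genes were 39.3% higher and 46.9% lower as fitted, and 32.7% and 32.4% with the offset. SETD1A (62.3% GC), the H3K4 methyltransferase of the SETD1 complex, had the largest fall as fitted, from 52.2 and 51.1 to 2.35 and 3.54 CPM. It was at -4.13 ± 0.153 as fitted (edgeR adjusted p = 5.2e-11) and at -0.51 with the offset (0.00257), under which SUV39H1 (-1.28) was the lowest. EHMT2 (60.9% GC) measured 6.01 and 7.39 CPM, with -3.92 as fitted and -0.56 with the offset (edgeR adjusted p = 5.03e-05). Both genes were thus called lower under the offset too, with the size of the difference much reduced. The median of all genes with the offset was itself -0.54 at 62% to 64% GC and -0.41 at 60% to 62% GC. SETD1A therefore did not stand below genes of like GC content, and EHMT2 stood only slightly below them. SETD7 (44.2% GC), an H3K4 monomethyltransferase that also methylates other proteins, had the largest rise as fitted, from 127 and 123 to 348 and 328 CPM. It was at 1.44 as fitted and at 0.73 with the offset, under which SETD1B (1.13) and DOT1L (0.84) stood higher.

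DOT1L (62.7% GC) measured 5.69 and 6.93 CPM in siPIR libraries, at -2.85 as fitted (edgeR adjusted p = 2.34e-10) and 0.84 with the offset (7.86e-07), opposite directions. SETD1B (61.3% GC) measured 4.34 and 4.48 CPM and went likewise, from -2.23 to 1.13. KMT2C (45.02% GC) was higher both ways, with 119 and 150.5 CPM (1.21 as fitted, 0.64 with the offset). SETD2 (42.7% GC) measured 129 and 144 CPM, at 0.92 as fitted and -0.09 with the offset (edgeR adjusted p = 0.299). KMT2A (46.9% GC) was at 0.50 as fitted and 0.30 with the offset, and had the other sign with total counts alone (-0.11).

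In PRC2, SUZ12 was higher in siPIR libraries, by much more as fitted than with the offset. Among all genes of 38% to 40% GC, the median log2 fold change was 1.73 as fitted and 0.14 with the offset. SUZ12 (38.0% GC) measured 443 and 341 CPM, beside 87.5 and 91.01 untreated, the largest rise of the 4 at 2.13 ± 0.129 (edgeR adjusted p = 3.12e-09). With the offset it was at 0.40 (edgeR adjusted p = 6.47e-05). Its pseudogene SUZ12P1 held at most 256.5 counts in a library. EED (33.0% GC) measured 50.5 and 49.6 CPM, at 1.36 as fitted (edgeR adjusted p = 2.2e-08) and -0.84 with the offset (1.06e-07). EZH2 (42.7% GC) was not called as fitted (0.15, edgeR adjusted p = 0.16) and was at -0.76 with the offset (1.52e-08). Scaled by total counts alone EZH2 was at -0.47, and by the upper quartile at -0.02, so its sign turned there too. EZH1 (50.5% GC), the 1 fall of the 4 as fitted, measured 20.5 and 24.1 CPM (-0.26, edgeR adjusted p = 0.0478). With the offset EZH1 was at 0.35. As fitted, its call was lost without each library other than siPIR replicate 2, and when the number in the descriptions was a block (edgeR adjusted p = 0.469). The EZH1 call was also lost with DESeq2, DESeq2 size factors in edgeR, limma-voom, a filter of 1 CPM in 2 libraries, and the 4 libraries alone.

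Among the DNA methylation enzymes the largest fall in siPIR libraries was that of DNMT1 (55.4% GC), from 226 and 211 to 33.3 and 36.3 CPM. It was at -2.65 ± 0.105 as fitted (edgeR adjusted p = 8.22e-11) and at -0.81 with the offset (4.42e-09). Per kilobase DNMT1, the highest of the 39 in untreated cells at 40.4 CPM per kb, stood at 6.44 CPM per kb in siPIR libraries. Many of the 39 stood above it there, among them SUZ12 (38.0% GC) at 87.3 and SETD7 (44.2% GC) at 45.9. These levels are not corrected for GC content. All 3 TET genes were called higher as fitted. TET2 (43.0% GC) rose most as fitted, from 18.7 and 18.4 to 71.7 and 61.6 CPM (1.85 as fitted, 0.87 with the offset). TET3 (52.3% GC) measured 67.0 and 60.8 CPM, at 0.78 as fitted and 1.72 with the offset (edgeR adjusted p = 5.04e-13), the highest of the 3 there. TET1 (41.0% GC) measured 22.9 and 24.004 CPM, at 1.58 as fitted and 0.23 with the offset (edgeR adjusted p = 0.0927). DNMT3A (53.7% GC), at 16.3 and 18.2 CPM, and DNMT3B (53.9% GC) were called lower as fitted (-0.43 and -0.56) and higher with the offset (0.86 and 0.92).

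Both treatments were compared with the same untreated libraries, so shared directions carry no independent weight and values are only set side by side. KDM6A was at 1.43 with SP2509 and at 1.72 in siPIR libraries (0.89 with the offset), KMT2C at 1.01 and 1.21 (0.64), TET2 at 0.59 and 1.85 (0.87), and TET3 at 1.09 and 0.78 (1.72). EHMT2 was at -0.76 with SP2509 and at -3.92 in siPIR libraries (-0.56 with the offset). KDM4A and SETD1A were at 0.74 and 0.68 with SP2509, and at -1.14 and -4.13 in siPIR libraries (-0.48 and -0.51). When siPIR libraries were compared with SP2509 libraries directly, 12 of the 39 were called higher and 22 lower as fitted, beside 38.8% and 45.5% of all genes, and 16 and 16 with the offset, beside 32.6% and 37.1%. By role, 4 of 13 demethylases were called higher and 8 lower as fitted and 7 and 5 with the offset, and of 16 methyltransferases 4 and 9 as fitted and 3 and 8 with it. Of 4 PRC2 genes the counts were 2 and 1 as fitted and 1 and 2 with the offset, and of 6 DNA methylation enzymes 2 and 4 as fitted and 5 and 1 with it. The balance thus turned over with the offset in all roles but the methyltransferases.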

How the data were processed

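The authors deposited 1 table of estimated counts per gene, in which 88.02% to 90.68% of values per library are whole. Per the submitters' processing notes, the genome build was GRCh38 and the tools included HISAT2, Trimmomatic 0.32, FastQC 0.11.8, edgeR 3.26.4, Subread 1.6.2 and featureCounts. Libraries were made with a directional kit, per the labels' protocols. Neither the strand setting nor the origin of fractional counts is given in the sources used here. Of the 39 genes, 29 had a fractional count, 26 overlap a gene on the opposite strand and 8 have a named copy or antisense row, so reads may be shared there.

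Counts were rounded, filtered by filterByExpr and scaled by TMM, and 6 libraries in 3 groups were fitted with the robust quasi-likelihood test of edgeR 4.0.16 (R 4.3.3), leaving 3 residual degrees of freedom. The 16503 genes tested share 1 Benjamini-Hochberg adjustment, with a threshold of 0.05. Each SE was derived from that test, as the absolute log2 fold change divided by the square root of its F statistic. The script was tested on simulated data. CPM is the count scaled to library size and TMM factor, and a count of 0 allows up to 3 counts, 0.1041 to 0.1326 CPM before scaling (counting error only). GC content and length come from each gene's longest GENCODE release 29 transcript. The GC-length offset removes from each library a natural-spline trend (5 degrees of freedom each) on GC content and log2 length. Alternatives were DESeq2 1.42.0, limma-voom (limma 3.58.1), 3 other scalings, 2 other filters, blocks for the replicate number and for an unexplained number in the descriptions, the offset, 4 libraries alone, and each library left out.

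The genes, lists and tests were chosen with earlier results of these data known. Values in every library are given for genes called with SP2509 at a log2 fold change of at least 1 either way and for the largest rise, largest fall and least changed gene of each role, with siPIR values for these and for each role's extremes. Of other pathway genes KDM1A and each list's extremes are named. SUV39H1, EHMT1, EHMT2, KMT2D and further genes were added after their values were seen.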

Additional observations from a re-analysis of the deposited data

How the results depend on the processing

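Deviations from the group mean in libraries of the same replicate number correlated at -0.0385, -0.0244 and 0.0815. They showed no pairing by that number, but 2 libraries a group cannot show that the samples were unpaired. The number in the descriptions differs from it: replicate 1 is 10 in the siPIR group and 11 in the others. A replicate block gave 18 genes higher and 6 lower with SP2509 and 16 and 19 in siPIR libraries, within 1.5 times the counts without it. A block for the unexplained number in the sample descriptions gave 20 and 6, and 17 and 17, and ended the siPIR calls of KDM2A (edgeR adjusted p = 0.0797) and EZH1 (0.469). Depth limits the lowest siPIR values most: SUV39H1 rests on 11 and 20 counts there.

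For SP2509 against untreated libraries, the counts of genes called higher and lower were 17 and 6. They were 11 and 10 with upper-quartile scaling and 10 and 16 with total counts alone, as in the report. With 1 library left out they ranged from 14 to 20 and from 3 to 7. For siPIR against untreated libraries, leaving out 1 library gave 16 to 17 higher and 16 to 20 lower, and the GC-length offset gave 9 lower, alone and with the replicate block. For siPIR against SP2509 libraries the ranges without 1 library were 11 to 14 and 19 to 22.

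Single genes changed sign with SP2509 as follows (log2 fold changes; the cause was not tested). With upper-quartile scaling, KDM3B was at -0.15, KDM4B at -0.080, KDM4C at -0.017, KDM5A at -0.21, KDM5B at -0.21, SETD1B at -0.18, SETD7 at -0.029, SUV39H1 at -0.15, EZH2 at -0.094 and SUZ12 at -0.11. With total counts alone, KDM3B was at -0.30, KDM4B at -0.24, KDM4C at -0.17, KDM5A at -0.36, KDM5B at -0.37, KDM5C at -0.0064, PHF2 at -0.11, SETD1B at -0.34, SETD7 at -0.18, SETDB1 at -0.13, EHMT1 at -0.038, SUV39H1 at -0.30, EZH1 at -0.080, EZH2 at -0.25 and SUZ12 at -0.27. With the GC-length offset, KDM5A was at -0.021, KDM5B at -0.015, EED at 0.080, DNMT1 at 0.052 and DNMT3A at 0.022, and with the replicate block as well, KDM5A was at -0.019, KDM5B at -0.015, EED at 0.079, DNMT1 at 0.052 and DNMT3A at 0.022. With a filter of 1 CPM in 2 libraries, KDM5B was at -0.0068. With 1 library left out, KDM5A ranged from -0.021 to 0.086, KDM5B ranged from -0.010 to 0.083, SETD1B ranged from -0.053 to 0.18, SUV39H1 ranged from -0.033 to 0.22, DNMT1 ranged from -0.11 to 0.0047 and DNMT3A ranged from -0.095 to 0.0055. All of these but KDM5C, EHMT1 and EZH1 were uncalled in the fit reported.

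For siPIR against untreated libraries, signs turned with the GC-length offset in 17 genes, with KDM2A at 0.50, KDM2B at 2.33, KDM3B at 0.31, KDM4B at 1.93, KDM6B at 0.93, PHF2 at 1.64, SETD1B at 1.13, SETD2 at -0.095, SETDB1 at 0.50, SETDB2 at -0.20, SUV39H2 at -0.11, DOT1L at 0.84, EZH1 at 0.35, EZH2 at -0.76, EED at -0.84, DNMT3A at 0.86 and DNMT3B at 0.92. With the replicate block and the offset together they were KDM2A at 0.50, KDM2B at 2.33, KDM3B at 0.31, KDM4B at 1.93, KDM6B at 0.93, PHF2 at 1.63, SETD1B at 1.14, SETD2 at -0.096, SETDB1 at 0.50, SETDB2 at -0.20, SUV39H2 at -0.11, DOT1L at 0.85, EZH1 at 0.35, EZH2 at -0.76, EED at -0.84, DNMT3A at 0.86 and DNMT3B at 0.92. With total counts alone, KMT2A was at -0.11, NSD1 at -0.42 and EZH2 at -0.47, and with upper-quartile scaling, EZH2 was at -0.023. The cause was not tested.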
